A study of Mus musculus with 2 samples.

Results

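The genes described here are those of a chromosome 17 block that runs from Decr2 to Luc7l in the mouse. They were measured in G1E cells, an erythroid progenitor line derived from mouse embryonic stem cells that lack GATA-1. Both groups carried ER-GATA-1(V205G), a form of GATA-1 that binds FOG-1 poorly and is joined to the ligand-binding domain of the estrogen receptor, so that it becomes active once estradiol is given. One group was untreated (1 array, 0 h) and the other had received 1 µM estradiol for 24 h (1 array). No array of cells without the fusion and no untreated array at 24 h entered the comparison, so effects of the active mutant, of the hormone and of time in culture cannot be told apart. With 1 sample a group there is no spread between cultures and no p-value, and every difference below lies between 2 arrays.

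Members were taken by gene symbol. A probe set, a group of short probes read as 1 signal, belonged to the block when a listed gene was the only symbol that the platform annotation gave it. The list held 10 names, of which Tmem8 is an older symbol of Pgap6, and so it covered 9 genes: Decr2, Nme4, Pgap6, Mrpl28, Axin1, Pdia2, Rgs11, Fam234a and Luc7l. They had 20 probe sets, out of 34945 probe sets with 1 symbol and 18193 genes on the array. The RefSeq gene table for GRCm38.p6 places the 9 genes on chromosome 17 in this order. It lists 1 further protein-coding gene inside the block, Arhgdig, between Pdia2 and Rgs11, which had no probe set of its own. The block was selected on position together with the estradiol to untreated ratios of these same arrays, so the ratios of its genes are given as a description and without a test.

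In the human genome the counterparts of these genes lie beside the alpha-globin cluster. In mice the working alpha-globin genes and their other flank are on chromosome 11, while the chromosome 17 genes stayed together next to an alpha-globin pseudogene, Hba-ps4, which RefSeq lists on the far side of Luc7l. The block is a mixture of ordinary housekeeping genes and genes best known from other tissues, which share position and not function. GATA-1 is the zinc finger factor that drives red cell maturation by binding GATA motifs near its target genes. FOG-1 is the cofactor through which it acts at many, but not all, of them.

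Of the 9 genes, 4 had at least double the untreated signal after estradiol (2-fold higher) and 0 were 2-fold lower. The background over the 10240 measured genes was 2.04% for a 2-fold higher signal and 1.1% for a 2-fold lower one. "Measured" means a signal at or above a floor of 95.2, the 50th percentile of all signals, and all 9 genes met it on their brightest probe set. The 4 genes were Pdia2, Fam234a, Decr2 and Nme4, and the other 5 lay within 1.5-fold, as did 88.0% of all measured genes. The median log2 ratio of the 9 genes was 0.53, against 0.00 over all measured genes. Since the ratios took part in the choice of the block, nothing is read from these counts about the block as a whole.

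Pdia2 encodes a protein disulfide isomerase of the endoplasmic reticulum that is best known from the pancreas. Its only probe set, 1428952_at, read 153 untreated and 917 with estradiol, a 5.98-fold higher value (log2 ratio 2.58). The untreated signal was 1.61 times the floor and at the 11.6th percentile of measured genes, and the treated signal was at the 53.6th. Among measured genes it was thus one of the dimmer ones untreated and near the middle with estradiol.

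Fam234a, formerly Itfg3, encodes a membrane protein whose role is not well known. Its probe set 1434387_at read 238 untreated against 1211 in the treated culture, a ratio of 5.08-fold (log2 ratio 2.34). Only 9 genes on the array had measured ratios of at least 5-fold, and Pdia2 and Fam234a were the 7th and 9th from the top. They are not adjacent: Arhgdig and Rgs11 lie between them.

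Decr2 encodes a peroxisomal reductase that helps degrade unsaturated fatty acids. Its probe set 1423495_at read 209.9 untreated against 522 after treatment, 2.49 times as much (log2 ratio 1.31). Nme4, its direct neighbour, encodes the nucleoside diphosphate kinase of mitochondria. Its probe set 1416798_a_at was already bright, with 1319 on the untreated array and 3202 on the other, 2.43 times as much (log2 ratio 1.28). In absolute signal Nme4 gained most of the 4, by 1883, against 972 for Fam234a, 763 for Pdia2 and 312 for Decr2. Decr2 and Nme4 thus had almost the same ratio at signals that differed by several fold, though signals of different probe sets are not comparable as transcript levels.

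**Figure D1:**
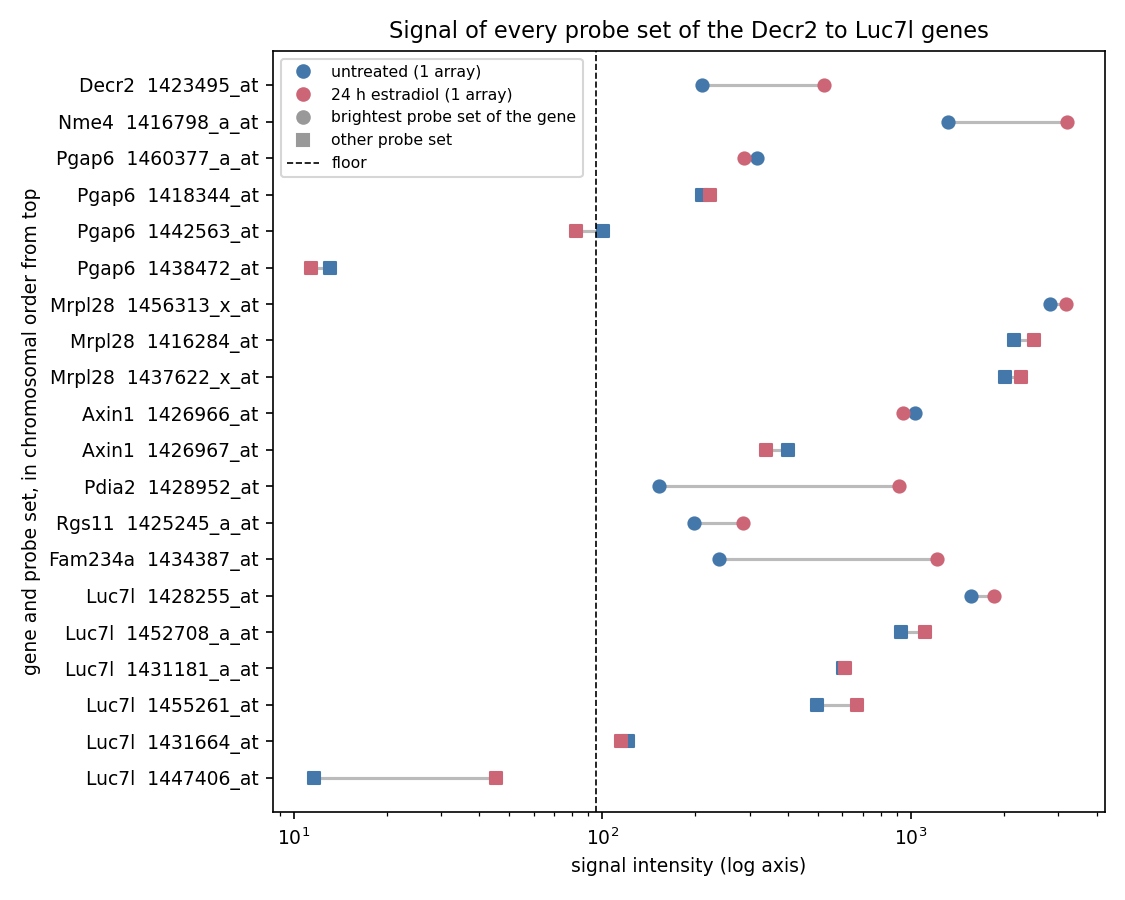
Signal intensity (log axis) of all 20 probe sets of the 9 genes, with genes in chromosomal order from the top; blue is the untreated array, red the estradiol array, circles mark the brightest probe set of a gene, squares its other probe sets, and the dashed line is the floor of 95.2. Among probe sets that reach the floor, the wide gaps belong to Pdia2, Fam234a, Decr2 and Nme4, each with 1 probe set, while the probe sets of Pgap6, Mrpl28, Axin1 and Luc7l that reach the floor lie close together in both conditions.

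Each of these 4 genes rested on 1 probe set, so no second probe set of theirs could be set beside the first. Rgs11 too had 1 probe set, and the 4 genes with several all lay near 0. Over the array, 2.30% of the 3776 measured genes with a single probe set were at least 2-fold higher, and 1.89% of the 6464 with several. Counted by probe set over the array, 2.03% passed 2-fold upward and 1.01% downward. Of the 20 probe sets of the block 17 were measured, of which 4 passed upward and 0 downward. Probe sets of the same gene differed in log2 ratio with a pooled SD of 0.25 (12514 probe sets of 4586 genes), which covers probe noise and transcript forms but not differences between cultures. The ratios of Pdia2, Fam234a, Decr2 and Nme4 were 10.3, 9.33, 5.23 and 5.09 times this SD. These multiples only describe size, since the ratios took part in the choice of the block. The SD is pooled over all signal levels, and genes with 1 probe set, such as these 4, gave nothing to it.

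The sequence before the transcription start is shown for the 4 genes and, as a member that differed little, for Mrpl28. RefSeq promoter windows (GRCm38.p6) matched 6 of the 9 genes, Decr2, Nme4, Pgap6, Mrpl28, Pdia2 and Fam234a, the last with 2 windows. Each line runs 5′ to 3′ on the gene's strand and ends at the base before the annotated start. Capitals mark GATA motifs (AGATAA with its variants AGATAG, then TGATAA, then TGATAG) and CACCC boxes (CACCC), each on either strand, so that a motif of the other strand appears as its reverse complement. None of the marked motifs overlap. The Pdia2 stretch is cut to 95 bases and that of Mrpl28 to 248, where the window meets the neighbouring genes Arhgdig and Pgap6.
Pdia2, chr17:26199088-26199182, minus strand: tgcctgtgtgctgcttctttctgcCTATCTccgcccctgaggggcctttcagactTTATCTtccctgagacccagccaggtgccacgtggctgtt
Fam234a, chr17:26244243-26244492, minus strand: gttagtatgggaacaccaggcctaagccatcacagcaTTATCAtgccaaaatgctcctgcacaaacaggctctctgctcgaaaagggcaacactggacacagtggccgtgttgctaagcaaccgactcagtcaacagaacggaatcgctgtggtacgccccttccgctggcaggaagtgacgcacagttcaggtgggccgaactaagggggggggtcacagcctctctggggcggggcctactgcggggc
Decr2, chr17:26090165-26090414, minus strand: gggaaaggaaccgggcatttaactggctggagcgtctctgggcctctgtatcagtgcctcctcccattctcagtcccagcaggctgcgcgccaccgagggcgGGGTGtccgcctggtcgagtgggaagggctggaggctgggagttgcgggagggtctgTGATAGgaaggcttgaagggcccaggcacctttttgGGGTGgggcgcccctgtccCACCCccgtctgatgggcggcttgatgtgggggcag
Nme4, chr17:26095471-26095720, minus strand: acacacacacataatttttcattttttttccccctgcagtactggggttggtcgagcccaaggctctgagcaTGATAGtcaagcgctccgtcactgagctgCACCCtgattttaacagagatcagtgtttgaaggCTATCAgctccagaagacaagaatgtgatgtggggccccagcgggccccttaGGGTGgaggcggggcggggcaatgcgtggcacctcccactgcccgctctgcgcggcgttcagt
Mrpl28, chr17:26123255-26123502, plus strand: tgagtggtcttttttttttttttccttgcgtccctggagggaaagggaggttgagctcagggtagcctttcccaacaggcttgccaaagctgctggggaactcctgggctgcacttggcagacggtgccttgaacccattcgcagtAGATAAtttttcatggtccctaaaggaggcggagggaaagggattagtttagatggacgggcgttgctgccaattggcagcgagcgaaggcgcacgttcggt

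The Pdia2 stretch holds 2 GATA motifs, 35 to 40 and 66 to 71 bases before the start, and no CACCC box. Nme4 has 2 GATA motifs and 2 CACCC boxes, and Decr2 has 1 GATA motif between 2 of its 3 CACCC boxes. Of the 2 Fam234a windows, the one shown has 1 GATA motif, 208 to 213 bases before its start. The window of its other, overlapping start, chr17:26244161-26244410, has no GATA motif but 2 CACCC boxes.

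Mrpl28 has 1 GATA motif as well, and Pgap6 has none and 1 CACCC box. Of all 32851 promoter windows of 250 bases, 26.5% hold a GATA motif and 52.0% a CACCC box. Among measured genes with a window, taking the first listed window of each, a GATA motif was present in 33 of the 172 genes (19.2%) that were at least 2-fold higher, in 19 of the 92 (20.7%) that were at least 2-fold lower, and in 1384 of the 8127 (17.03%) within 2-fold. An estrogen response element was searched on either strand as AGGTCA, any 3 bases and TGACC. The second arm is shorter than the first, so this is not the full palindrome. It was found in none of the 7 windows of the block and in 17 windows overall (0.0517%). A TATA box (TATAAA) was in none of the 7 either, against 12.4% of all windows and 6.53% of the measured genes within 2-fold.

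The windows differ in CpG content, a feature of promoters active in most tissues. The Pdia2 window holds 2 CpG dinucleotides in its 250 bases, 0.111 of the number that its C and G content would give by chance. The windows of the other 5 genes hold 11 to 20, with observed over expected values from 0.459 (Decr2) to 0.759 (Pgap6). The median was 0.373 over all windows and 0.748 over the measured genes within 2-fold, so Pdia2 lay below both and 4 of the other 5 genes lay between them on every window. Matches of this kind describe the letters and not the binding of a factor.

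The other 5 genes had small ratios. Rgs11, of the R7 family of regulators that shorten G protein signals, was dim at 198 before and 286 after treatment, a 1.45-fold difference (log2 ratio 0.53). This is 2.13 times the SD between probe sets, and 865 of the 10240 measured genes had a ratio as high or higher. It is the next value under the 4 genes past 2-fold, the lowest of which was Nme4 at 1.28.

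Luc7l encodes a U1 snRNP-associated protein that takes part in the choice of 5′ splice sites. Its brightest probe set read 1570 and 1854 (log2 ratio 0.24). Of its 6 probe sets 5 were measured, with log2 ratios from -0.08 to 0.43, and the dimmest was below the floor with 11.6 and 45.4. The probe sets at 926 and 1107, 600.2 and 612, and 497 and 668 had log2 ratios of 0.26, 0.03 and 0.43. The SD of the 5 measured log2 ratios was 0.20, a little under the brightest probe set's distance from 0.

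Mrpl28 encodes a protein of the large mitochondrial ribosomal subunit. Its 3 probe sets read 2822 and 3171, 2154 and 2497, and 2014 and 2272, with log2 ratios of 0.17, 0.21 and 0.17. They hardly differed among themselves (SD 0.02), and all lay within 1 SD (0.25) of 0.

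Axin1 encodes the scaffold on which beta-catenin is marked for destruction. Its probe sets read 1028 and 941, and 401 and 339.6, log2 ratios of -0.13 and -0.24. It was 1.09-fold lower on the brighter of them. Pgap6 encodes a phospholipase that trims GPI-anchored proteins at the cell surface. It read 317 and 287 on its brightest probe set (1.10-fold lower, log2 ratio -0.14) and 211 and 224 on the next (log2 ratio 0.09), so its probe sets differed in sign. Its remaining probe sets read 101 and 82.1, across the floor, and 13.1 and 11.4, below it.

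In chromosomal order, high and low ratios alternated within the block. The neighbouring pair Decr2 and Nme4 (1.31 and 1.28) was followed by Pgap6, Mrpl28 and Axin1 (-0.14, 0.17 and -0.13), then by Pdia2 at 2.58, Rgs11 at 0.53, Fam234a at 2.34 and Luc7l at 0.24. Axin1 and Pdia2, direct neighbours, had the lowest but for Pgap6 and the highest ratio of the block. A gene at least 2-fold higher thus had a neighbour with a small ratio on at least 1 side in each case.

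The 15 protein-coding genes on each side of the block gave the surroundings. On the Decr2 side 11 were measured, with log2 ratios from -0.30 to 0.31 and a median of -0.03, and 0 passed 2-fold in either direction. The nearest of these were Rab11fip3, an adaptor of recycling endosomes (142 and 165, log2 ratio 0.22), Capn15, a calpain protease gene (311 and 329.5, 0.08), and A930017K11Rik, below the floor on both arrays. The step from Rab11fip3 to Decr2 was therefore from 0.22 to 1.31, at the edge of a block selected in part on such ratios. Rab11fip3 was dim, and its other probe set (83.5 and 75.3) was below the floor.

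On the Luc7l side 10 were measured, from -0.69 to 1.42 with a median of 0.08, and 1 passed 2-fold. Neurl1b was below the floor on both arrays. Dusp1, a MAP kinase phosphatase gene that responds quickly to many stimuli, read 179 and 479, 2.68-fold higher. Ergic1, of the membranes between endoplasmic reticulum and Golgi, followed at 835 and 518 (log2 ratio -0.69). Over both sides the median was -0.0041, with 10 genes above 0 and 11 below.

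**Figure D2:**
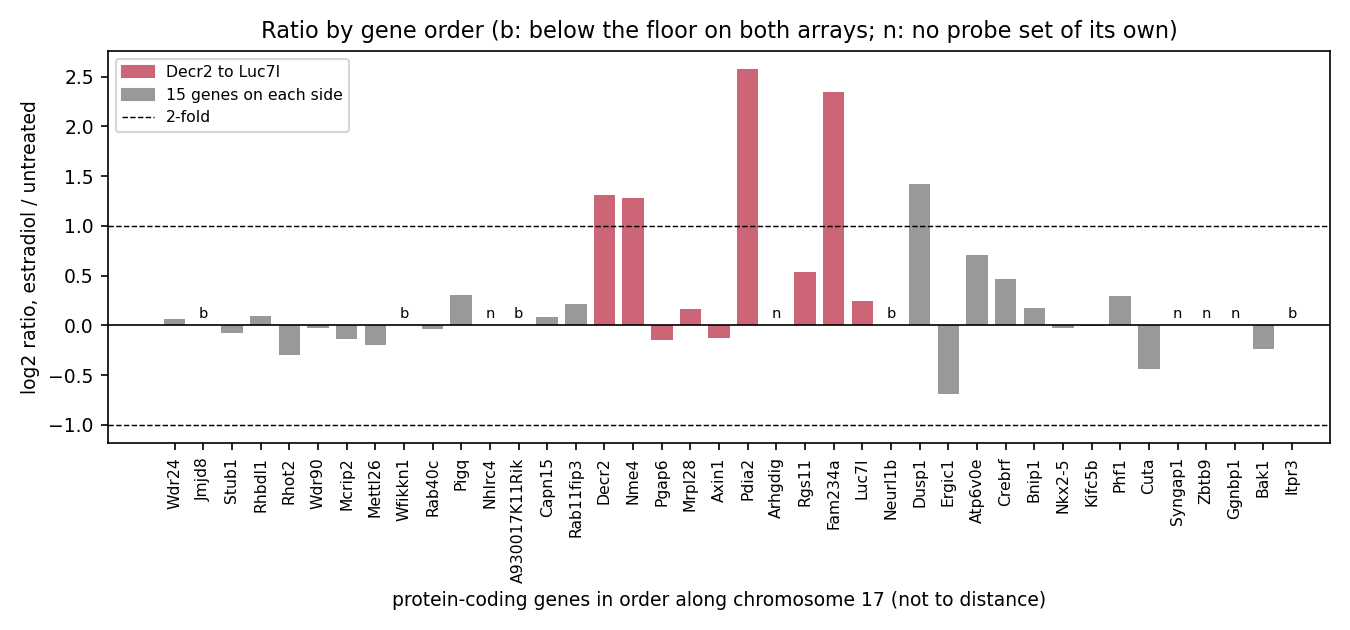
Log2 ratio of estradiol over untreated for the protein-coding genes in order along chromosome 17, evenly spaced and not to distance; red bars are the block, grey bars the 15 genes on each side, dashed lines mark 2-fold, b marks genes below the floor and n genes without a probe set of their own. Bars past 2-fold are Decr2, Nme4, Pdia2 and Fam234a in the block and Dusp1 outside it.

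The 4 genes past 2-fold shared their orientation, which was noticed after their values were seen. Decr2, Nme4, Pdia2 and Fam234a are all on the minus strand in the promoter table. The 2 members listed there on the plus strand, Pgap6 and Mrpl28, had log2 ratios of -0.14 and 0.17. Over the array, 2.17% of the 4147 measured minus-strand genes and 1.93% of the 4244 plus-strand genes in the table passed 2-fold upward. Members without a window (Axin1, Rgs11 and Luc7l) are not counted here.

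Set against all measured genes, the block spanned most of the range of signal. Untreated signals ran from the 11.6th percentile (Pdia2) to the 83.4th (Mrpl28). Among the 4 higher genes, Decr2 went from the 19.8th to the 38.9th percentile, Fam234a from the 22.6th to the 61.8th and Nme4 from the 64.5th to the 86.2nd. Decr2 and Nme4 ranked 93rd and 104th from the highest ratio of the 10240. Among all genes 209 were at least 2-fold higher and 113 lower. When the arrays were brought to a common median instead, the numbers were 160 and 161, the median of all genes moved by -0.11 on the log2 scale, and the 4 genes of the block were still past 2-fold.

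**Figure D3:**
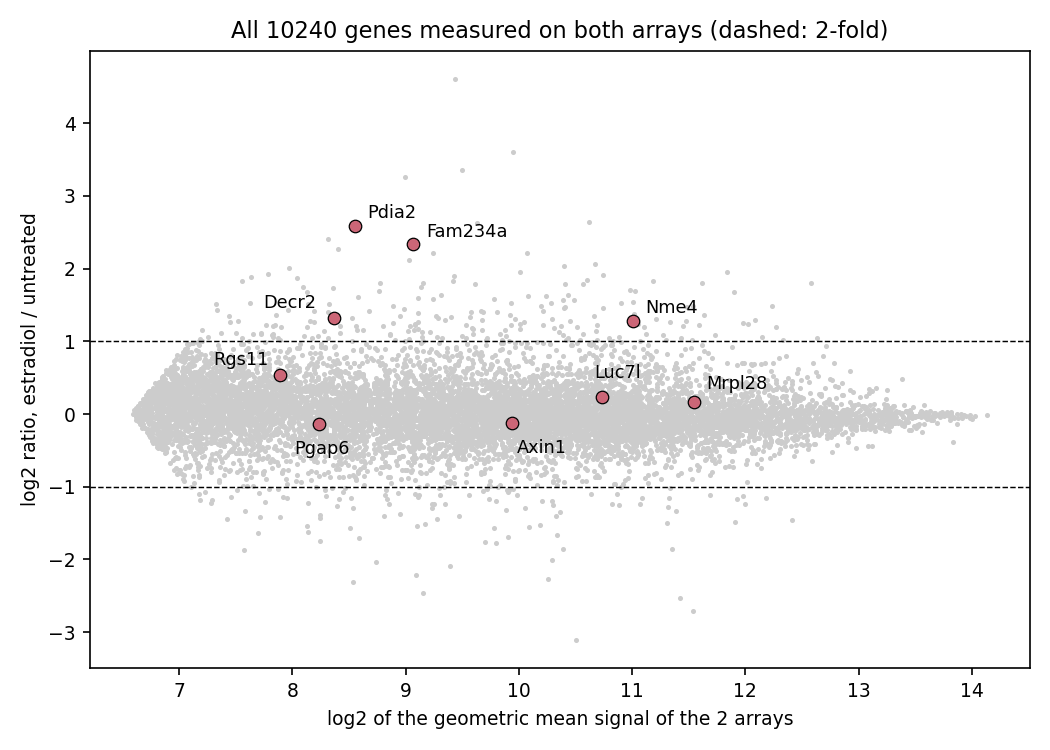
Log2 ratio of estradiol over untreated (vertical axis) against the log2 geometric mean signal (horizontal axis) for the 10240 genes measured on both arrays in grey, with the 9 genes of the block in red and dashed lines at 2-fold. Pdia2 (2.58) and Fam234a (2.34) stand near the upper edge of the cloud, Decr2 and Nme4 above the 2-fold line, and the other 5 inside the dense part.

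Likeness was taken as distance in the log2 signals of both arrays. The genes most like the pair at the top were neither members of the block nor among its neighbours described above. For Pdia2 these were the lysosomal protease gene Lgmn (154 and 744, distance 0.30), the chloride channel gene Ano1 (138 and 733, 0.36) and the peptidylarginine deiminase gene Padi3 (235 and 818, 0.64). For Fam234a they were the globin gene Hbb-b2 (251 and 1093, distance 0.17), the nuclear receptor gene Ppard (280.2 and 1301, 0.26) and the decarboxylase gene Ddc (305 and 1062, 0.40). With 2 arrays this likeness rests on 2 values a gene. How far these genes lie from the block was not examined, so some may be on the same chromosome.

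A list of genes named for the alpha-globin flank on chromosome 11 was set beside the block. Unlike the chromosome 17 neighbours, it was not drawn from RefSeq positions, so not every listed gene need lie on that chromosome. Of 10 listed genes on the array 7 were measured, with a median log2 ratio of 0.04 and 0 past 2-fold in either direction. The highest was Rhbdf1, an inactive rhomboid protease gene, at 178 and 277 (log2 ratio 0.64), and the lowest Polr3k, an RNA polymerase III subunit gene, at 2497 and 1560 (-0.68). Nprl3, whose introns hold the alpha-globin enhancers, read 794 and 698 (-0.19), Mpg 628 and 556 (-0.17) and Snrnp25 2006 and 2067 (0.04). Sh3pxd2b had a log2 ratio of 0.33 and Hba-a1, at 97.3 and 136 close to the floor, 0.48. These values are for the brightest probe sets, and others differed. The other probe set of Sh3pxd2b went the opposite way, at 175 and 89.1, an upper bound of -0.88. The other measured probe sets of Polr3k had log2 ratios of -0.19, -0.23 and -0.34, and a dimmer measured one of Mpg had -0.72. Probe sets shared by Hba-a1 and Hba-a2 have several symbols and were not used here, so these signals do not give the level of alpha-globin.

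Genes of related function were set beside the 4 higher genes. Of the other protein disulfide isomerases and their partners 14 were measured, with log2 ratios from -0.41 to 0.58, a median of -0.06 and 0 past 2-fold in either direction, against 2.58 for Pdia2. The brightest were P4hb, the main isomerase (5644 and 5830, log2 ratio 0.05), and Ero1a, an oxidase that recharges these enzymes (5157 and 7698, 0.58). Fam234b, the only relative of Fam234a listed, read 1114 and 921 (-0.27), against 2.34.

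Among enzymes that assist fatty acid oxidation in peroxisomes and mitochondria, 8 besides Decr2 were measured, from -0.23 to 0.26 with a median of 0.01. Decr1, the mitochondrial counterpart of Decr2, was bright at 4348 and 4695 (log2 ratio 0.11, against 1.31), and the carrier gene Scp2 read 2464 and 2525 (0.03). Of the nucleoside diphosphate kinases and partners 7 besides Nme4 were measured, from -0.32 to 0.58 with a median of -0.03. The bright cytosolic forms Nme2 (9879 and 8737) and Nme1 (7458 and 6720) had log2 ratios of -0.18 and -0.15, against 1.28 for Nme4. None of these enzymes or kinases passed 2-fold.

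Relatives of the 5 members with small ratios are given next. The 46 other large mitochondrial ribosomal protein genes ran from -0.50 to 0.46 with a median of -0.05, and 0 passed 2-fold, with Mrpl28 at 0.17. The brightest were Mrpl15 (7560 and 6963, log2 ratio -0.12) and Mrpl12 (6708 and 5999, -0.16). On their brightest probe sets the 7 measured LUC7 and U1 snRNP genes ran from -0.32 to 0.11, with a median of -0.18. All lay below Luc7l at 0.24 on its brightest, but this order depended on the probe set. Some dimmer probe sets of Luc7l2, Snrnp70, Tia1 and Nktr lay above 0.24 and others below. Those of Luc7l itself ran from -0.08 to 0.43. The brightest genes of the list were Luc7l3 (4639 and 3996, -0.22) and Snrpc (4039 and 4353, 0.11).

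Of 21 measured partners and targets of beta-catenin turnover besides Axin1, 1 passed 2-fold. This was Tcf7l2, a transcription factor that works with beta-catenin, at 798 and 307 (log2 ratio -1.38). Axin2, a gene that beta-catenin commonly activates, was near the floor at 126 and 110.2 (-0.19). Csnk1a1 (7338 and 7632) and Ctnnb1, beta-catenin itself (6951 and 6570), were the brightest, with 0.06 and -0.08. The list median was 0.07, beside -0.13 for Axin1.

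Of 6 measured GPI anchor genes besides Pgap6, 1 passed 2-fold. Mppe1, which removes a side chain of the anchor, read 1365 and 3263 (2.39-fold higher), while Pgap4, at 1605 and 815 (log2 ratio -0.98), was just under 2-fold in the other direction. The brightest was Gpaa1 (2995 and 2589, -0.21), and the median was -0.08. Of the R7 regulators and partners besides Rgs11, 3 were measured, Rgs9bp (604 and 386, -0.64), Rgs9 (325 and 386, 0.25) and the obligate partner Gnb5 (108 and 124, 0.19). Rgs6 and Rgs7 were below the floor on both arrays.

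**Figure D4:**
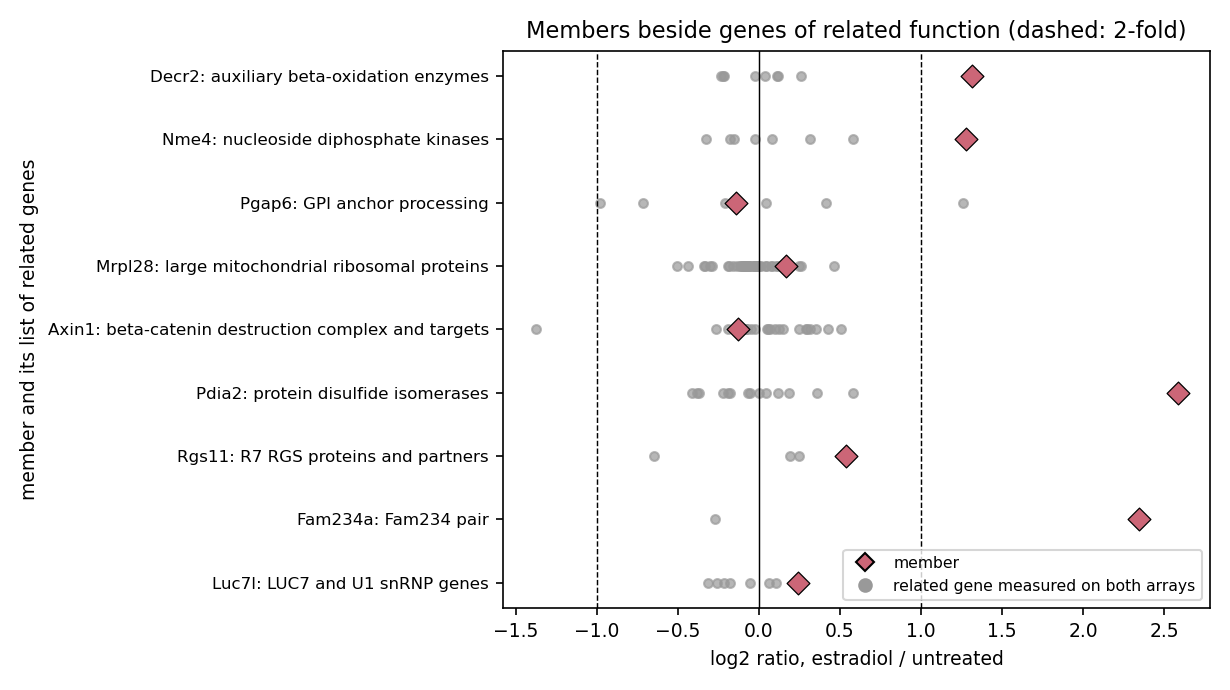
Log2 ratio of estradiol over untreated for each member (red diamonds) and for the related genes measured on both arrays (grey points), 1 row per member, with dashed lines at 2-fold. Pdia2, Fam234a, Decr2 and Nme4 lie to the right of every grey point in their rows, and the related genes past 2-fold are Mppe1 and Tcf7l2.

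Marker genes were checked against the labelled cell type. Of 12 erythroid markers on the array 12 were measured, among them Klf1, Tal1, Kit and Tfrc. On their brightest probe sets Alas2 and Zfpm1 were past 2-fold upward. Slc4a1 had a log2 ratio of 0.86 on its brightest probe set and 1.21 on a dimmer one (314 and 726). Of the 12, 6 had log2 ratios above 0 and 6 below, among the latter Tal1 (-0.56), Gata2 (-0.45) and Nfe2 (-0.37). Of 4 lymphoid markers 0 were measured, of 5 neutrophil and monocyte markers 1 (Csf1r, 321 and 373), and of 5 megakaryocyte markers 3, none past 2-fold. Mast cell markers went both ways, with 4 of 7 measured and Tpsab1 higher but Cpa3 and Ms4a2 lower by at least 2-fold. Their summed signal, mostly Cpa3 untreated and Tpsab1 with estradiol, was 9189 and 5773, and its part in the ratios of the block was not tested. Pancreatic acinar markers, listed because Pdia2 is known from that tissue, were dim or below the floor: Cela1 read 186 and 114, Cel 111 and 80.7, Ctrb1 25.3 and 25.8 and Cpa1 4.30 and 5.90. Only these 4 of 7 listed were on the array. None of the 4 was at or above the floor and higher with estradiol, as Pdia2 was. Untreated, Cela1 was brighter than Pdia2 (153), and a link of the Pdia2 ratio to that tissue was not tested.

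The choice of floor mattered most for the dim members. With a floor of 319, the 70th percentile, the untreated signals of Pdia2, Fam234a and Decr2 lay below it, and their ratios became lower bounds of 1.52, 1.92 and 0.71 on the log2 scale. The bounds of Pdia2 and Fam234a were past 2-fold, while that of Decr2 does not settle on which side of 2-fold it lay. Pgap6 and Rgs11 were below this floor on both arrays, and Nme4 alone was measured on both and past 2-fold. At a threshold of 3-fold only Pdia2 and Fam234a remained.

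**Figure D5:**
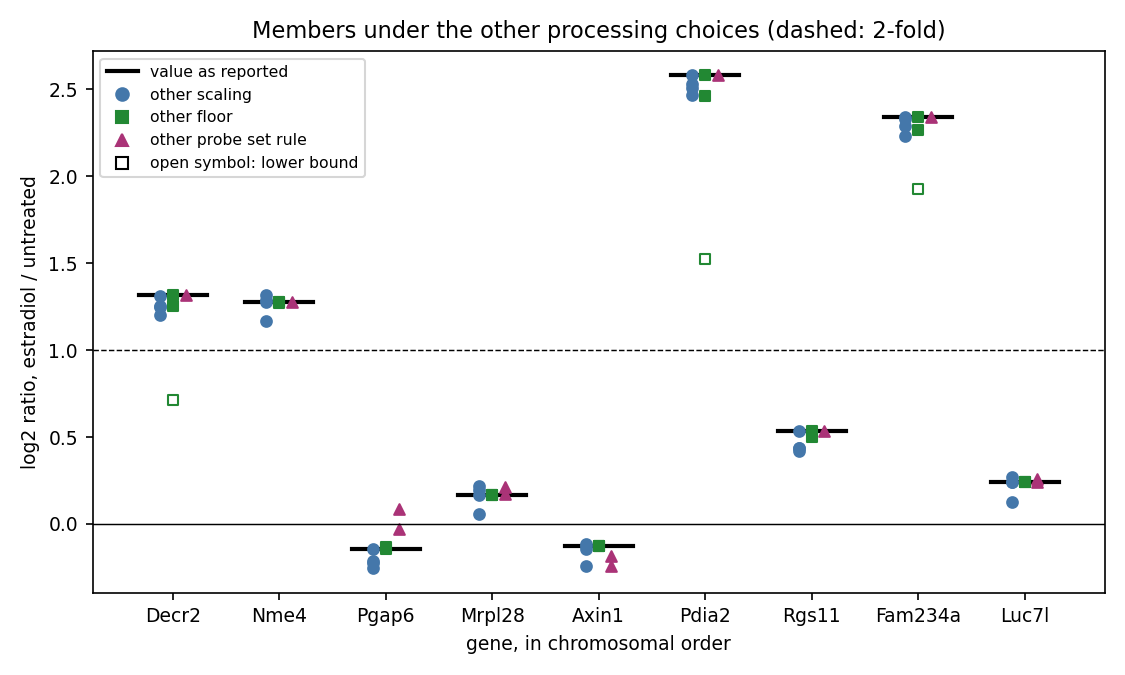
Log2 ratio of estradiol over untreated for each of the 9 genes as reported (black bars) and under other scalings (blue circles), floors (green squares) and probe set rules (purple triangles); open symbols are lower bounds and the dashed line is 2-fold. Nme4 stays between 1.17 and 1.32, and the open squares show where the higher floor leaves bounds for Decr2, Pdia2 and Fam234a.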

How the data were processed

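The authors deposited 1 linear signal intensity per probe set for each of 2 arrays, made with Affymetrix GCOS per the submitters' processing notes; its version and settings are not given in the sources used here. Each array's 2% trimmed mean stood at 500.0, and rescaling over the 45037 probe sets that are not controls changed values by factors of 0.999941 and 1.00006. Precision is limited by the number of arrays.

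Probe sets were named through the platform annotation: 34945 had 1 symbol, 932 several and 9160 none. The floor was set on scaled signals, log2 ratios were taken above it, and a gene took its brightest probe set. Where 1 array reached the floor the ratio is a bound. All members and their probe sets are named. So are the nearest 3 neighbours on each side, list genes past 2-fold and the brightest 2 of a list, with further examples chosen after their values were seen. The members and lists were chosen with earlier results of these data known. Promoter windows came from RefSeq (GRCm38.p6), 250 bases before each start. Steps were tested on simulated data. Alternatives covered scaling, floor, probe set rule and threshold. Python 3.11.15, numpy 2.4.6, scipy 1.17.1, pandas 2.3.3 and statsmodels 0.14.6 were used.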

Additional observations from a re-analysis of the deposited data

How the results depend on the processing

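All 4 genes of the block past 2-fold stayed past it under the 4 other scalings and with no floor and 16 added. Of these scalings, the values as deposited differ by factors of only 0.999941 and 1.00006. The 30th percentile floor and the median over probe sets could not change the ratios of these 4 genes. Their signals already lay above the main floor, and each has 1 probe set. With the 70th percentile floor 4 genes of the block were measured and 1 was past 2-fold. Pdia2 and Fam234a had lower bounds past 2-fold, Decr2 a lower bound under it, and Pgap6 and Rgs11 no value. With the second brightest probe set 4 were measured and 0 past 2-fold, because the 4 genes have no second one. At 3-fold 2 were past the threshold. Pgap6 was the only member whose sign depended on a setting, 0.09 on its second brightest probe set.

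Over all genes, those higher and lower numbered 439 and 288 with the 30th percentile floor, 130 and 65 with the 70th, 679 and 512 of 18193 with no floor, 104 and 51 of 4598 with the second brightest probe set, 728 and 497 at 1.5-fold, and 49 and 21 at 3-fold. Of the neighbours, 0 were higher with the 70th percentile floor, with the second brightest probe set and at 3-fold, and at 1.5-fold 2 were higher and 1 lower. The median of the alpha-globin flank list was 0.36 with no floor. Loess used a span of 0.3. With 1 array a group, no array could be left out, and signals near the floor limit what dim genes show.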
